A study of Mus musculus with 6 samples.

Results

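The genes described here are 10 genes of lipid-storing lung fibroblasts and of fat storage and breakdown, chosen by name as Pparg, Plin2, Lpl, Fabp4, Fabp5, Cd36, Tcf21, Mgll, Lipe and Pnpla2, out of 45706 genes in the deposited table. Each symbol matched 1 Ensembl identifier, and all 10 passed the filter on low counts that left 14635 genes for testing. They were measured by RNA sequencing in fibroblasts grown out of digested lungs of wild-type mice. The control group (3 samples) was titled control and carried UNT in its column names, with no dose or time given. The DKK1 group (3 samples) was kept for 24 hours with 30 ng/ml of recombinant mouse DKK1 protein. DKK1 (Dickkopf-1) is a secreted antagonist of Wnt signalling that binds the co-receptors LRP5 and LRP6. Strain, age and sex of the mice, and whether samples of a group came from different animals, are not given in the sources used here, so p-values measure only the spread between these samples, which may be technical.

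Lipofibroblasts are fibroblasts of the alveolar wall that hold droplets of neutral fat and stand close to the alveolar type II cells that make surfactant. Fatty acids reach such cells when lipoprotein lipase frees them from circulating triglyceride and carriers such as CD36 and the fatty acid-binding proteins move them; they are stored as triglyceride in droplets coated by perilipins. Stored triglyceride is broken down in steps by the lipases ATGL, HSL and monoacylglycerol lipase. PPAR-gamma is the nuclear receptor that switches on much of this programme in fat cells.

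Library totals lay between 22565917 and 34727102 counts, and a floor of 3 counts was worth 0.0864 to 0.133 CPM, the count of a gene scaled to the library total. All 10 fibroblast markers were detected, with summed levels of 17053 to 20246 CPM. Replicate 3 of both groups stood apart from the other libraries on the first principal component (32.9% of the variance), and it held more RNA of other cell types. The 18 alveolar macrophage markers, of which 15 reached 3 counts in at least 1 library, summed to 881 CPM in control replicate 3 and 903 CPM in DKK1 replicate 3, against 427 to 516 CPM in the other 4 libraries. The 12 endothelial markers, of which 11 reached 3 counts in at least 1 library, summed to 129 and 122 CPM in replicate 3 against 66.1 to 82.9 CPM elsewhere, and the 8 mesothelial markers, all of which did, to 149.6 and 149.0 CPM against 54.8 to 61.7 CPM. The defining fat cell genes Plin1, Cidec, Retn and Lep had 0 counts in all 6 libraries, and the 10 fat cell markers together reached at most 1.37 CPM. In bulk RNA, fewer cells of a type and less RNA per cell cannot be told apart.

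Mgll, the monoacylglycerol lipase gene, was lower with DKK1 and was the 1 member called when samples were treated as unpaired (edgeR quasi-likelihood test, adjusted p under 0.05), where 0.895% of all tested genes were called, 0.697% higher and 0.198% lower. That call was kept in 1 of the 6 fits that left out 1 library. Same-numbered samples of both groups deviated together, and a fit with a replicate block called 4 of the 10 members, against 9.42% of all genes (4.96% higher and 4.46% lower): Mgll and Lpl were lower and Plin2 and Cd36 were higher with DKK1. DESeq2 with the block called 2 of these, Mgll (adjusted p = 0.0113) and Lpl (1.41e-07). The direction was the same in all 3 same-numbered pairs for 7 of the 10 members, 5 higher and 2 lower, against 41.8% of all tested genes (22.3% higher and 19.5% lower). Control and DKK1 libraries were fully separated in 3 members (Mgll, Fabp4 and Lipe), against 16.5% of all tested genes. The median log2 fold change of the 10 members was 0.07, beside 0.00 over all genes tested. The members were chosen with earlier results of these data known, so their counts cannot show enrichment.

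The 250 bases upstream of the start site are shown for Mgll, Plin2 and Cd36, the members called in the paired fit that are in the promoter table, so that the sequence next to a gene that fell can be read beside that of genes that rose; they are RefSeq sequences of GRCm38.p6, printed 5′ to 3′ on the strand of the gene, and capitals mark matches to the motifs named after them. Mgll is on the forward strand at chr6:88724162-88724411, Plin2 on the reverse strand at chr4:86670060-86670309 and Cd36 on the reverse strand at chr5:17835897-17836146. The Cd36 window lies inside the annotated gene (chr5:17781690-17888801), so its start site is an internal one and not the 5′ end of the gene.
Mgll: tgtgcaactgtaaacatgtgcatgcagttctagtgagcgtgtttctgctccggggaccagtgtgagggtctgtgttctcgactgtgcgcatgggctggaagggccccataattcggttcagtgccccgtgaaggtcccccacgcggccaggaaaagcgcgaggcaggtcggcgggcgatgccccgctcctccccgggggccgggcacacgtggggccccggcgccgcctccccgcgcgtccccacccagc
Plin2: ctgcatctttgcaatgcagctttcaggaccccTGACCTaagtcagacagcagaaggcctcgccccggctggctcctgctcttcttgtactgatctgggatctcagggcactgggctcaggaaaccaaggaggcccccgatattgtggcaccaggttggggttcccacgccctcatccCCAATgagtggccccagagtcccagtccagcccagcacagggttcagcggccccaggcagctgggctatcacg
Cd36: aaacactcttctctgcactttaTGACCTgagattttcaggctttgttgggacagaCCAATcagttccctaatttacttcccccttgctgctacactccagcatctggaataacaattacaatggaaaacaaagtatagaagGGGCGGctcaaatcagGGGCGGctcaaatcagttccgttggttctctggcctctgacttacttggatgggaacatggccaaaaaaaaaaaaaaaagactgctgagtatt
Both strands were searched for the PPAR element (AGGTCA repeated in the same direction with any 1 base between) and for AGGTCA alone, which the element contains, for the TCF/LEF core CTTTGA, the NF-kB motif (GGGA and TTCC with any 2 bases between), the C/EBP motif TTGCNNAA, CCAAT, the TATA box TATAAA and the GC box GGGCGG. The printed Mgll window held none of these letters; the table holds a further Mgll window at chr6:88724454-88724703, not printed here, with 74.8% G and C and 1 GC box, 121 bases before its start site. Plin2 and Cd36 each held 1 AGGTCA on the reverse strand, printed as TGACCT, 218 and 228 bases before the start site, and 1 CCAAT; Cd36 also held 2 GC boxes. AGGTCA is found in 14.0% of all 32851 promoter windows of this length, CCAAT in 33.8% and GGGCGG in 32.7%. The full PPAR element is in 0.0335% of windows and in none of these 3, the TCF/LEF core is in 13.8%, the NF-kB motif in 1.21%, the C/EBP motif in 9.56% and the TATA box in 12.4%. The printed windows of Mgll, Plin2 and Cd36 were 68.0%, 61.6% and 43.2% G and C, against a median of 52.4% over all windows. Gm26588, an antisense gene on the other strand, has exons that overlap those of Mgll. Whether it also covers the printed Mgll window was not examined.

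Mgll (ENSMUSG00000033174, chr6:88724412-88828360, forward strand) encodes the enzyme that frees the last fatty acid from monoacylglycerol and that also degrades the endocannabinoid 2-arachidonoylglycerol. It stood at 22.7, 21.2 and 22.1 CPM in control replicates 1, 2 and 3 and at 15.9, 15.2 and 18.0 CPM in the DKK1 replicates. Every DKK1 library was below every control library, and the highest control was 1.07 times the lowest. Mgll fell by 0.43 on the log2 scale (SE 0.07, edgeR adjusted p = 0.0368), a ratio of 0.740, and the log2 differences of pairs 1, 2 and 3 were -0.51, -0.48 and -0.30. With the block the difference was -0.44 (SE 0.06, edgeR adjusted p = 0.000386). The unpaired call was lost when control replicate 1, 2 or 3 or DKK1 replicate 1 or 2 was left out (edgeR adjusted p = 0.161, 0.115, 0.0866, 0.173 and 0.128) and kept without DKK1 replicate 3 (0.0219), with log2 fold changes of -0.50 to -0.39. The exons of Gm26588 overlap those of Mgll on the other strand, but that gene had at most 1 count in any library, beside 414 to 598 counts of Mgll. Over the 6 libraries the genes closest to Mgll in pattern were Zfp963, Tgfb3 and Intu, with root mean square distances between mean-centred log2 CPM profiles of 0.0486, 0.0526 and 0.0683, against a median of 0.252 over all other tested genes. Of these, Tgfb3 was called in the unpaired fit (log2 fold change -0.39, edgeR adjusted p = 0.0285).

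**Figure D1:**
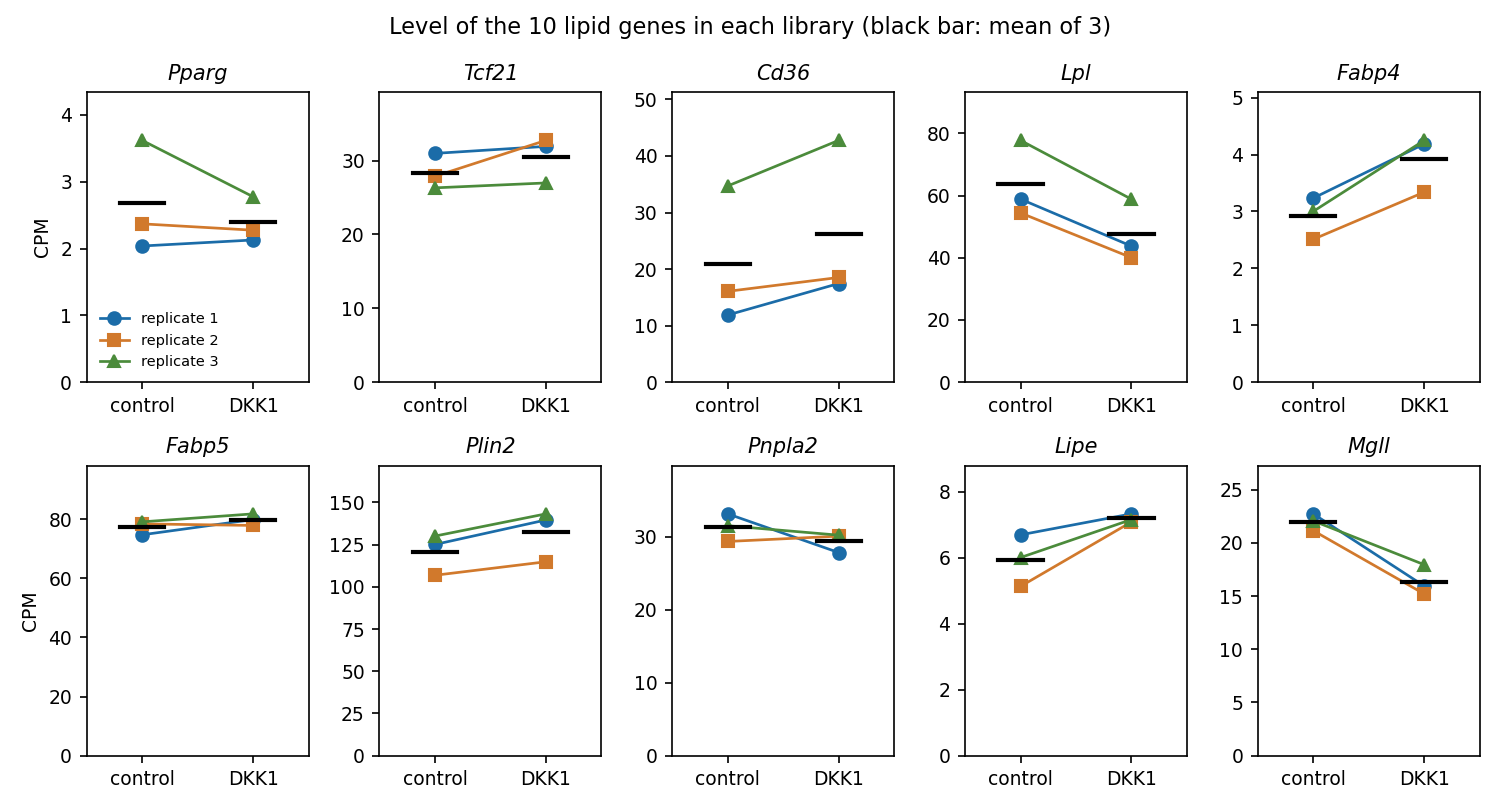
Level in CPM (vertical axis, from 0) of each of the 10 lipid genes in the 3 control and 3 DKK1 libraries; lines join libraries with the same replicate number and black bars are group means. The lines of Mgll and Lpl go down in all 3 pairs, those of Plin2, Cd36, Fabp4, Tcf21 and Lipe go up in all 3, and replicate 3 lies far above the other replicates for Cd36.

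The other lipases of the breakdown pathway were not called in either fit; their differences from the Mgll change were not tested. Pnpla2 (ENSMUSG00000025509, chr7:141455198-141460743, forward strand) encodes ATGL, which takes the first fatty acid from triglyceride. Its levels were 33.1, 29.4 and 31.5 CPM in control and 27.8, 30.1 and 30.2 CPM with DKK1, so that the groups overlapped (log2 fold change -0.10, SE 0.06, edgeR adjusted p = 0.650, with the block 0.376). Lipe (ENSMUSG00000003123, chr7:25379527-25398710, reverse strand) encodes hormone-sensitive lipase, which acts on diacylglycerol. Lipe stood at 6.69, 5.13 and 6.00 CPM in control and at 7.33, 7.08 and 7.16 CPM with DKK1; each DKK1 library was above each control, but the difference was not called in either fit (0.27 on the log2 scale, SE 0.12, edgeR adjusted p = 0.457; in the blocked fit 0.28, SE 0.10, adjusted p = 0.128). Its antisense neighbour 4732471J01Rik, with overlapping exons, had at most 4 counts in any library.

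Among genes of fatty acid uptake, Lpl was lower with DKK1 by nearly the same ratio in each pair. Lpl (ENSMUSG00000015568, chr8:68880491-68907448, forward strand) encodes lipoprotein lipase, the secreted enzyme that splits triglyceride of lipoproteins. It measured 58.9, 54.4 and 77.8 CPM in control and 43.8, 40.1 and 58.9 CPM with DKK1. Replicate 3 was the highest of each group, and DKK1 replicate 3 lay above control replicate 2, so the groups overlapped. The unpaired fit did not call it (log2 fold change -0.43, SE 0.16, edgeR unadjusted p = 0.0263, adjusted p = 0.363), whereas with the block Lpl fell by 0.43 (SE 0.04, edgeR adjusted p = 3.74e-06), and the log2 differences of the pairs were -0.43, -0.44 and -0.40. None of the 6 unpaired fits that left out 1 library called Lpl (edgeR adjusted p = 0.129 to 0.674), with log2 fold changes of -0.60 to -0.27. An unpaired fit without replicate 3 of both groups, added after the data were seen, did call it (log2 fold change -0.44, edgeR adjusted p = 0.0362). Macrophages also express Lpl, and the macrophage marker sum was likewise highest in replicate 3; its part in the Lpl difference was not tested.

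Cd36 (ENSMUSG00000002944, chr5:17781690-17888801, reverse strand), a scavenger receptor that takes up long-chain fatty acids, was the most variable member. Its levels were 11.9, 16.1 and 34.7 CPM in control and 17.4, 18.5 and 42.8 CPM with DKK1. The highest control was 2.92 times the lowest, a wider gap than the rise in any pair (1.47, 1.15 and 1.23-fold). Cd36 was not called without the block (log2 fold change 0.31, SE 0.44, edgeR adjusted p = 0.879) and was called with it (0.33, SE 0.06, edgeR adjusted p = 0.00418), though not by DESeq2 with the block (adjusted p = 0.0808). The unpaired value of Cd36 moved when only 1 of the replicate 3 libraries was left out. It was -0.21 without DKK1 replicate 3 and 0.86 without control replicate 3. Without both it was 0.35 (edgeR adjusted p = 0.462), and the blocked value without pair 3 was also 0.35 (edgeR adjusted p = 0.0480). Macrophages and endothelial cells also express Cd36, and the libraries with most Cd36 were those with most macrophage and endothelial marker RNA; within pairs the macrophage marker sum was 469 against 427, 516 against 501 and 903 against 881 CPM (DKK1 against control), while 8 of the 14 tested macrophage markers had a negative log2 fold change (median -0.16). The endothelial marker sum was lower with DKK1 in each pair, at 76.7 against 81.9, 66.1 against 82.9 and 122 against 129 CPM. The part of these cells in the Cd36 difference was not tested.

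The fatty acid-binding proteins carry fatty acids in the cytoplasm. Fabp4 (ENSMUSG00000062515, chr3:10204088-10208576, reverse strand), the form of fat cells, macrophages and endothelium, was scarce at 3.23, 2.51 and 3.00 CPM in control and 4.19, 3.34 and 4.25 CPM with DKK1, from 68 to 120 counts per library. All DKK1 libraries lay above all controls and the pairs differed by 0.37, 0.41 and 0.50 on the log2 scale, but the difference missed the threshold (0.42 on the log2 scale, SE 0.17, edgeR adjusted p = 0.394; in the blocked fit SE 0.14 and adjusted p = 0.0829). Fabp5 (ENSMUSG00000027533, chr3:10012548-10016607, forward strand), the epidermal form, kept within 74.7 to 81.8 CPM over the 6 libraries, and differed by 0.04 on the log2 scale (SE 0.04, edgeR adjusted p = 0.802). Its estimated count had a fractional part in 5 of 6 libraries, as happens when reads are divided among loci, so the level is uncertain.

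Plin2 (ENSMUSG00000028494, chr4:86648386-86670060, reverse strand) encodes perilipin 2, the droplet coat protein by which lipofibroblasts are often recognised. It was found at 125, 107 and 130.1 CPM in control and at 139.6, 115 and 143 CPM with DKK1. The groups overlapped, because replicate 2 was the lowest in both, while each DKK1 library exceeded its same-numbered control by 1.12, 1.07 and 1.10-fold. Plin2 was called in the paired fit only (0.13 on the log2 scale, SE 0.03, edgeR adjusted p = 0.00701; unpaired SE 0.09 and adjusted p = 0.703), and DESeq2 with the block did not call it (adjusted p = 0.187). With 1 library left out its unpaired value ran from 0.05 to 0.22.

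The 2 transcription factors were not called in either fit. Pparg (ENSMUSG00000000440, chr6:115360951-115490399, forward strand) was expressed weakly, at 2.04, 2.37 and 3.62 CPM in control and 2.13, 2.27 and 2.78 CPM with DKK1, or 46 to 82 counts per library. The difference came to -0.17 on the log2 scale (SE 0.24, edgeR adjusted p = 0.880; in the blocked fit -0.14, SE 0.17 and adjusted p = 0.713), with 1 pair higher and the other two lower. The sign of Pparg turned to 0.09 without control replicate 3. Tcf21 (ENSMUSG00000045680, chr10:22817281-22820174, reverse strand), a helix-loop-helix factor that marks lipofibroblasts, stood at 31.0, 27.9 and 26.3 CPM in control and 31.9, 32.7 and 27.0 CPM with DKK1, higher in each pair but not called (log2 fold change 0.11, SE 0.09, edgeR adjusted p = 0.754; with the block adjusted p = 0.256).

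**Figure D2:**
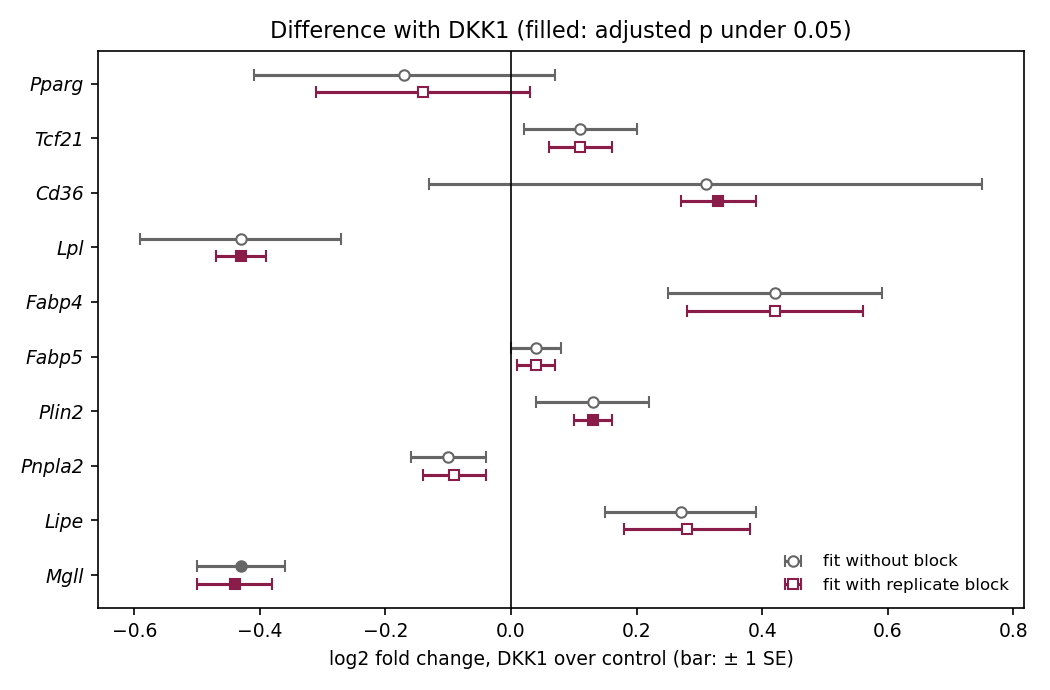
Log2 fold change of DKK1 over control (horizontal axis) of the 10 genes with bars of 1 SE, from the fit without (circles) and with (squares) the replicate block; filled symbols have an adjusted p under 0.05. Estimates agree between fits to within 0.03, while the SE of Cd36 goes from 0.44 to 0.06 and that of Lpl from 0.16 to 0.04.

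The spread of each gene over the 6 libraries was then divided into a share for treatment, a share for replicate number and a remainder, on log2 CPM. Treatment took 89.6% for Mgll, 65.8% for Fabp4 and 61.5% for Lipe, against a median of 16.6% over all tested genes. Replicate number took 91.3% for Cd36, 82.9% for Pparg, 79.2% for Plin2 and 71.8% for Tcf21, against a median of 47.5%. Lpl was divided almost evenly, with 47.9% for treatment, 52.0% for replicate number and 0.0884% left over. Replicate 3 was the highest library of both groups in 5 of the 10 members (Pparg, Plin2, Lpl, Fabp5 and Cd36), against 20.6% of all tested genes. These shares are descriptions of 6 libraries and carry no test.

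**Figure D3:**
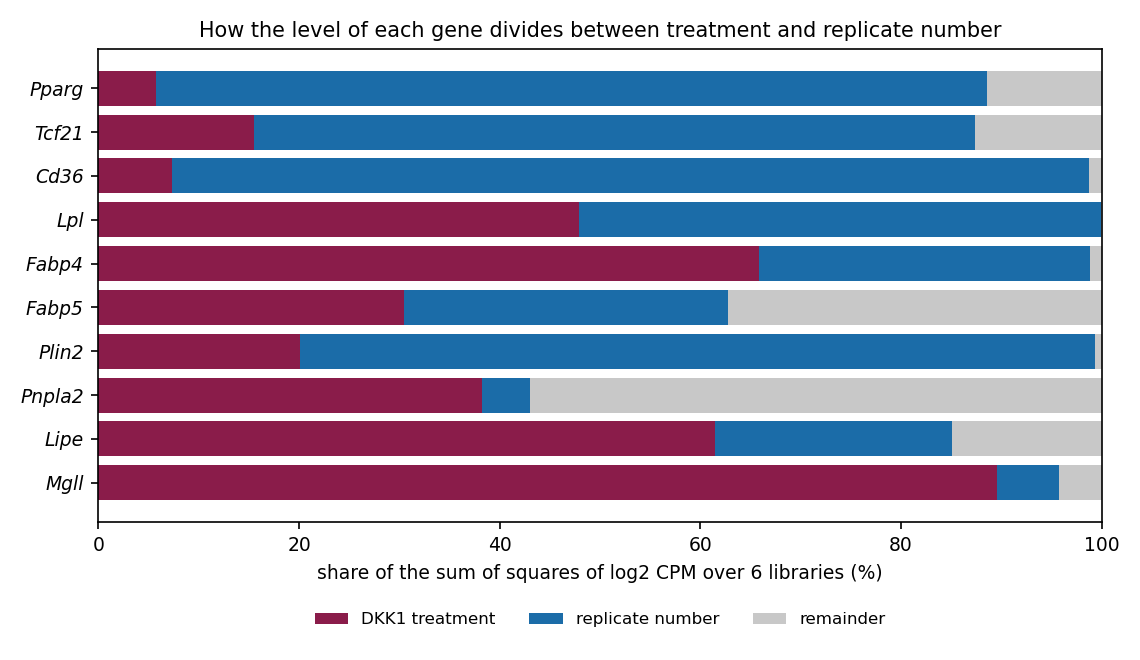
Share of the sum of squares of log2 CPM over the 6 libraries (horizontal axis, in percent) that falls to DKK1 treatment, to the replicate number and to the remainder for each gene. Mgll is mostly treatment (89.6%), Cd36 mostly replicate number (91.3%), and most of Pnpla2 is remainder (57.0%).

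Levels of different genes were compared per length, as CPM per kilobase of the principal annotated transcript. In control cells Fabp5 (78.4 ± 2.39) and Plin2 (63.9 ± 6.47) were the highest, followed by Tcf21 (22.4 ± 1.87), Pnpla2 (17.4 ± 1.06) and Lpl (15.5 ± 3.01; SD, n = 3 each). Cd36 (6.14 ± 3.57), Mgll (5.69 ± 0.205) and Fabp4 (3.25 ± 0.412) were lower, and Lipe (1.64 ± 0.217) and Pparg (1.51 ± 0.472) were the lowest. The ranges of control libraries overlapped between Pnpla2 and Lpl, between Cd36 and both Mgll and Fabp4, and between Lipe and Pparg, so the order within these neighbours is not resolved. The order also depends on the length used: per kilobase of all annotated exons Plin2 (34.4) stood above Fabp5 (21.7), and Fabp4 (0.650) stood below Pparg (0.906) and Lipe (1.01).

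The rest of the lipid pathways was read from 11 lists with 202 genes in the table besides the members, of which 166 were tested. In the unpaired fit 1 was called higher (Acsl4) and 1 lower (Cav1), and 26 had an unadjusted p under 0.05, against 10.6% of all tested genes; with the block 16 were called higher and 18 lower. The median log2 fold change of the 166 genes was -0.01. These 34 calls of 166 with the block stand beside 9.42% of all tested genes. By direction that share was 4.96% higher and 4.46% lower, to be set beside the counts of each list below. The lists were chosen with earlier results of these data known, so these counts cannot show enrichment. Of the 29 list genes with a blocked call that are named under the rule for list genes, 13 were called as well by DESeq2 with the block and by edgeR with the block without pair 1, 2 or 3 in turn: Acsl4, Aldh1a1, Angptl4, Apoe, Cav1, Cavin1, Cebpb, Cebpd, Gpc3, Pdgfra, Rdh10, Ucp2 and Vldlr.

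Acsl4, an acyl-CoA synthetase that prefers arachidonic acid, was the gene of triglyceride synthesis with a call in both fits. It rose from 114, 115 and 125 CPM in control to 148, 149.8 and 157 CPM with DKK1, with no overlap (log2 fold change 0.36, SE 0.04, edgeR adjusted p = 0.00876). The Acsl4 call was lost, narrowly, without control replicate 1 (edgeR adjusted p = 0.0507) or 2 (0.0582). Of 19 tested genes in that list, 3 were called higher and none lower with the block; the others were Dgat2, the enzyme of the last step of triglyceride synthesis (log2 fold change 0.46, SE 0.09, edgeR adjusted p = 0.00562), and Agpat5 (0.17, SE 0.05, adjusted p = 0.0471). DESeq2 with the block called neither Dgat2 (adjusted p = 0.193) nor Agpat5 (0.749), and the blocked edgeR call was lost for Dgat2 without pair 2 (0.0965) and for Agpat5 without pair 2 (0.135) or 3 (0.270).

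Cav1, the main protein of caveolae and also found on lipid droplets, stood at 319, 354 and 319.6 CPM in control and 221, 257 and 244 CPM with DKK1. It fell by 0.47 on the log2 scale (SE 0.06, edgeR adjusted p = 0.0164), and the call was lost without control replicate 1 (0.0522) or 2 (0.0610) or DKK1 replicate 1 (0.0618). Among the 10 tested genes of the droplet coat and its assembly, Cavin1, a further coat protein of caveolae, was the other one called lower with the block (log2 fold change -0.24, SE 0.02, edgeR adjusted p = 4.60e-06), so that both calls of that list are caveolar genes. The perilipin gene Plin4 had 9 to 26 counts per library and was not called in either fit (-1.14 on the log2 scale, edgeR adjusted p = 0.238; in the blocked fit -1.10 and 0.0712).

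In the uptake and lipoprotein list (19 tested), 2 genes were called higher and 2 lower with the block. Angptl4, a secreted inhibitor of lipoprotein lipase and a PPAR target, measured 60.6, 46.9 and 51.2 CPM in control and 90.9, 65.1 and 65.0 CPM with DKK1, without overlap (log2 fold change 0.47, SE 0.04, edgeR adjusted p = 9.46e-06 with the block and 0.242 without). Got2, a mitochondrial aminotransferase, was the other one called higher (log2 fold change 0.12, edgeR adjusted p = 0.00392), and it was lost without pair 2 (0.0822) and in DESeq2 with the block (0.0580). Vldlr, the receptor for very low density lipoprotein, and Apoe, an apolipoprotein abundant in macrophages, were called lower (log2 fold changes -0.28 and -0.59, edgeR adjusted p = 0.000128 and 2.61e-05). Apoe was highest in replicate 3 of both groups, at 99.4 and 64.7 CPM against 19.6 to 33.2 CPM in the other libraries. Its unpaired value was -0.61 (edgeR adjusted p = 0.766) and turned to 0.12 without control replicate 3, and the part of macrophages in it was not tested.

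Of the 15 tested PPAR target genes, 3 were called higher and 3 lower with the block. The higher ones were, besides Angptl4, Acot1 (log2 fold change 0.31, edgeR adjusted p = 0.0267) and Cpt1a (0.20, 0.00270), which admits fatty acids to mitochondria. Among the lower ones were Ucp2 (-0.56, edgeR adjusted p = 7.95e-05), a mitochondrial carrier, and Pdk4 (-0.25, 0.0185), a kinase that restrains pyruvate oxidation. Ucp2 was highest in replicate 3 of both groups, at 28.7 and 18.7 CPM against 10.8 to 16.9 CPM in the other libraries, as the macrophage marker sum was. Its unpaired value of -0.58 was not called (edgeR adjusted p = 0.530) and ran from -0.86 to -0.25 with 1 library left out, the latter without control replicate 3; the part of macrophages in it was not tested. DESeq2 with the block did not call Acot1 (adjusted p = 0.573) or Pdk4 (0.526). The blocked edgeR call was lost for Acot1 without pair 1, 2 or 3 (0.106, 0.0556 and 0.139), for Pdk4 without pair 1 or 2 (0.0947 and 0.149) and for Cpt1a without pair 2 (0.0702). Cpt1a was the single call among 21 genes of fatty acid oxidation, and none of 18 tested genes of fatty acid synthesis was called by edgeR in either fit, or had an unadjusted p under 0.05 without the block. Fasn, the fatty acid synthase gene, stood at 448 ± 15.2 CPM in control and 445 ± 7.77 CPM with DKK1 (SD, n = 3 each).

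Among 20 adipogenic transcription factors, 2 early factors were called higher with the block: Cebpd (log2 fold change 0.48, SE 0.03, edgeR adjusted p = 6.60e-07) and Cebpb (0.40, SE 0.05, adjusted p = 0.000297); neither was called without it (0.0604 and 0.208). Klf4 was called lower (-0.18, edgeR adjusted p = 0.0101), but not without pair 3 (0.0616) or by DESeq2 with the block (0.202). Of 13 genes that restrain fat cell formation, 5 were called lower and none higher with the block, among them Dlk1 (-0.44, SE 0.13, edgeR adjusted p = 0.0437), Klf2 (-0.28, 0.00283), Ddit3 (-0.24, 0.0375) and Hes1 (-0.21, 0.0182), and none was called without it, where 3 had an unadjusted p under 0.05. None of these 4 named genes was called by DESeq2 with the block (adjusted p = 0.706 for Dlk1, 0.131 for Klf2, 0.685 for Ddit3 and 0.282 for Hes1). The blocked edgeR call was lost without pair 1, 2 or 3 for Dlk1 (0.119, 0.289 and 0.0542) and Ddit3 (0.170, 0.0812 and 0.161), and without pair 2 for Klf2 (0.0759) and Hes1 (0.210). Estimated counts of Cebpb, Ddit3, Acot1, Pdgfra, Aldh1a1 and Got2 were partly fractional, so their levels are uncertain.

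Further lipofibroblast markers went both ways: of 15 tested, 3 were called higher and 3 lower with the block, against 4.96% and 4.46% of all tested genes. None was called without it, where 2 had an unadjusted p under 0.05, against 10.6% of all tested genes. Pdgfra, the receptor that marks alveolar fibroblasts, and Fgf10, a growth factor of the distal lung mesenchyme, were higher (log2 fold changes 0.27 and 0.26, edgeR adjusted p = 9.74e-07 and 0.000669), as was Dhrs3, a retinal reductase (0.23, 0.0145). DESeq2 with the block called neither Fgf10 (adjusted p = 0.0529) nor Dhrs3 (0.329), and the blocked edgeR call of Dhrs3 was lost without pair 1 (0.0624) or 2 (0.162). Gpc3, a glypican, was lower (-0.33, edgeR adjusted p = 0.000179). Retinoid storage, a further trait of these cells, gave 3 calls higher and 2 lower of 13 tested genes with the block. Among them were Rdh10 (0.46, SE 0.05, edgeR adjusted p = 6.26e-05), which makes retinal, Rarb (0.37, SE 0.08, adjusted p = 0.00995) and Aldh1a1 (-0.33, SE 0.03, adjusted p = 2.70e-05). DESeq2 with the block did not call Rarb (adjusted p = 0.16), and its blocked edgeR call was lost without pair 1 (0.0798) or 2 (0.084). In the list of lipolysis partners and other lipases (15 tested), Pde3b (0.24, edgeR adjusted p = 0.0133) and Soat1 (0.10, 0.0386) were called higher with the block and none was called lower. The list does not separate genes that promote lipid breakdown from genes that oppose it, so these calls give no direction for lipolysis. DESeq2 with the block called neither Pde3b (adjusted p = 0.472) nor Soat1 (0.675), and the blocked edgeR call was lost for Pde3b without pair 2 (0.238) and for Soat1 without pair 1, 2 or 3 (0.0648, 0.206 and 0.136). Lipa, the lysosomal lipase gene, was at 88.8 ± 10.1 CPM in control and 91.3 ± 5.50 CPM with DKK1 (SD, n = 3 each).

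**Figure D4:**
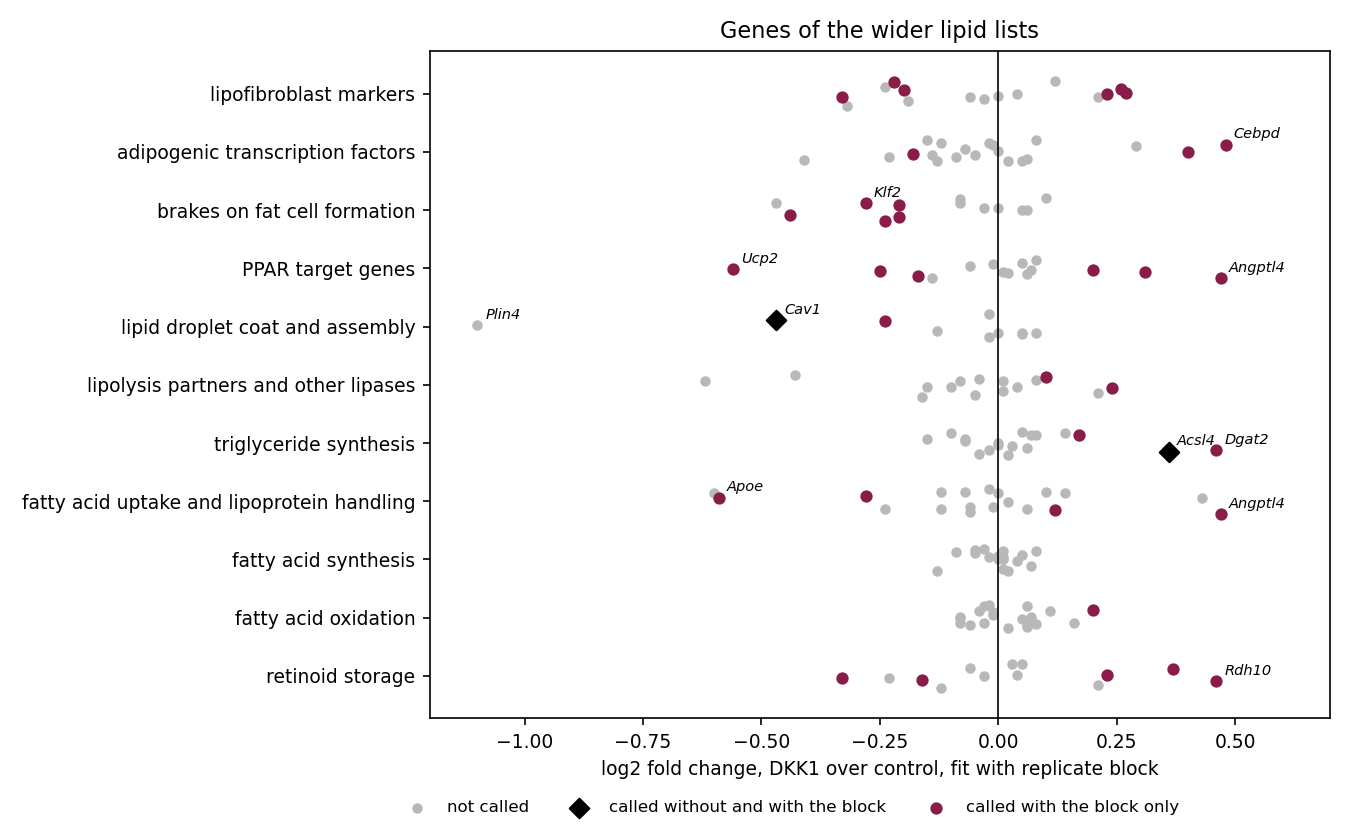
Log2 fold change with the replicate block (horizontal axis) of each tested gene of the 11 wider lipid lists, 1 list per line, with vertical scatter only to separate points; a gene in several lists appears in each. Grey points were not called, red points were called with the block only, and the black diamonds Cav1 and Acsl4 were called in both fits.

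Markers of contractile cells moved beside these genes. With the block 8 of 10 smooth muscle and myofibroblast markers were called lower and none higher, against 4.46% and 4.96% of all tested genes. Without it 1 was called lower, against 0.198%, and 7 had an unadjusted p under 0.05, against 10.6%. The summed level of these markers was 8341 against 9890, 8447 against 9749 and 9702 against 10866 CPM in the DKK1 and control libraries of pairs 1, 2 and 3. Of the 10 fibroblast markers, 2 were called higher and 6 lower with the block. Of the 14 tested macrophage markers, Marco and Adgre1 were called higher and Mrc1, Csf1r and Siglecf lower with the block. Without the block edgeR called no fibroblast or macrophage marker, and 4 and 2 of them had an unadjusted p under 0.05. Of the 11 tested endothelial markers, 1 (Ptprb) was called lower in both fits. The part of contractile cells, fibroblast share and macrophages in the lipid gene differences was not tested.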

How the data were processed

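Expected counts per gene were deposited as 1 table for the 6 samples; the submitters' processing notes name STAR, RSEM and edgeR 4.2.1 and the builds GRCm38 and mm10, with no role or order. Annotation release, strandedness and filters are not given in the sources used here. Per the file header, the authors' columns are unscaled estimated counts, of which 9.62% to 10.6% of values were not whole. Symbols were found for 45143 of 45706 identifiers (98.8%); coordinates and lengths come from GENCODE M21 (GRCm38), and promoter windows of 7 of the 10 members from RefSeq (Lpl, Fabp4 and Fabp5 were not in that table).

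Expected counts were rounded and tested with edgeR 4.0.16 in R 4.3.3: filterByExpr (minimum count 10), TMM factors, two-sided quasi-likelihood test of 3 against 3 samples, and Benjamini-Hochberg adjustment over all 14635 tested genes. Calls have an adjusted p under 0.05. Each SE was taken as |log2 fold change| over the root of the F statistic. CPM uses whole library totals, and floors cover counting error only. Values after ± are the SD over 3 libraries. These SDs and the SEs hold the spread between samples. The script was also run on simulated counts with the same dispersion for all genes, a simpler setting than these data. The outcome of that run is not given here.

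Titles number the replicates 1 to 3 in both groups. Deviations from group means correlated at 0.23 to 0.41 across genes in same-numbered samples and at -0.28 to 0.08 in others, so the numbers were taken as pairs and a replicate block was fitted too. Replicates of a group differed beyond sampling noise in all pairs (chi-square per degree of freedom 4.90 to 7.63).

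Alternatives were other scalings, filters, DESeq2 1.42.0, limma-voom (limma 3.58.1), unrounded counts and leaving out each sample; leaving out whole pairs was added after seeing the data. The members and lists were chosen with earlier results of these data known. Named list genes are those called without the block, up to 4 per list with the largest change among those called with it, and the 3 per list with the highest mean CPM; of the latter only some are printed. Plin4, Ptprb, Csf1r, Marco, Adgre1, Mrc1 and Siglecf were named after their values were seen.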

Additional observations from a re-analysis of the deposited data

How the results depend on the processing

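The 131 calls over all genes, the 1 call among the members and the 2 calls among the wider lipid lists stayed within 1.5 times under limma-voom, unrounded counts, scaling by library totals or DESeq2 size factors, and a stricter filter (10 counts in each of the 6 libraries). With the low-count filter off, calls numbered 329 over all genes, 1 member and 10 list genes. DESeq2 called 289 genes, 1 member and 7 list genes, and with the replicate block 551, 2 and 16. The edgeR fit with the replicate block called 1379 genes, 4 members and 34 list genes. With the block and without pair 1, 2 or 3 it called 1312, 612 and 1059 genes, 29, 17 and 27 list genes, and in each case 4 members, Mgll, Lpl, Plin2 and Cd36. Without pair 3 and without the block, 149 genes, 2 members (Mgll and Lpl) and 3 list genes were called. Leaving out 1 sample gave 36 to 139 genes, 0 to 1 members and 0 to 3 list genes. Across these 6 fits the sign turned for 2 members and 1 named list gene, none of them called without the block: Pparg (-0.32 to 0.09), Cd36 (-0.21 to 0.86) and Apoe (-1.28 to 0.12). The causes were not tested. Pparg, Fabp4 and Lipe rest on 46 to 246 counts per library, which limits what these depths can show for them.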
